A study of Mus musculus with 144 samples.

Results

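In podocytes, glomerular endothelial cells (gECs) and mesangial cells sorted from the same kind of glomeruli, 675 genes differed in the same direction between diabetic and control mice. A gene was taken as shared when the difference between diabetic and control mice, averaged over 3 ages, passed an adjusted p of 0.05 with the same sign in each of the 3 cell types. Of 15647 genes tested in all 3 cell types, 404 were higher in diabetic mice in every cell type (2.58% of the genes tested) and 271 were lower in every cell type (1.73%). The direction and the calls of these genes are therefore how they were chosen, and their fold changes are given as a description. The questions examined were what the shared genes are, how far they changed, whether they were measured in a cell type or could have been carried into it by sorting, and whether genes chosen in 1 sex moved the same way in the other.

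The diabetic animals were BTBR ob/ob mice, which lack functional leptin, overeat and develop obesity and hyperglycemia, and the controls were BTBR WT mice. Both genotypes carried the podocyte reporter, in which a Cre driven by a podocyte promoter switches a ubiquitous tdTomato signal to EGFP in podocytes. Female and male mice were taken at 6, 12 and 18 weeks of age, with 8 libraries for each cell type and genotype at 6 and 12 weeks and 7 at 18 weeks, so that each cell type had 23 WT and 23 ob/ob libraries. Glomeruli were isolated with magnetic beads and digested with enzymes at body temperature, cells stained for CD45 were gated out, and podocytes were sorted as EGFP-positive, mesangial cells as CD73-positive and gECs as PODXL-positive cells. The labels do not tie a library to an individual mouse. Same-numbered libraries of different cell types deviated from their groups together (mean r from 0.161 to 0.203), so the 3 cell types may share animals and their calls are not independent of each other. Other numbers had -0.055 to -0.07, which largely follows from the same-number values, since deviations were taken from the mean of each group and sex. In bulk RNA, fewer cells of a type and less RNA per cell cannot be told apart.

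The 3 cell types do different work in the same filter. Podocytes are epithelial cells whose foot processes bear the slit diaphragm, gECs line the capillaries, and mesangial cells are contractile cells that hold the capillary loops together and lay down mesangial matrix. In diabetes the glomerulus enlarges, its basement membrane thickens and the mesangial matrix expands. Some programs can run in any of them, such as the actin-controlled coactivators of serum response factor (MRTF/SRF), the heat shock response, glycolysis and the response to glucocorticoids.

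The 138 sorted libraries held between 14.8 M and 38.1 M counts, and depth was lowest in mice of 18 weeks (median 17.5 M, against 28.2 M and 29.1 M at the younger ages). Marker genes matched the sorted cell types. The 10 podocyte markers summed to a median of 25400 CPM (counts scaled by library size to a common total) in WT podocytes, 222 in WT mesangial cells and 510 in WT gECs. Lep, the gene mutated in ob/ob mice, reached at most 4 counts in any library, so it checks no label. A total of 9 libraries stood apart from their group, by a median correlation with the others of their group more than 3 median absolute deviations under the usual value. They include male 1 of the WT group at 12 weeks in each cell type. Without these 9 libraries, 378 genes were shared in the higher and 285 in the lower direction.

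Shared changes were small. The smallest of a gene's 3 log2 fold changes had a median of 0.192 among the higher and 0.155 among the lower genes, and 33 higher and 7 lower genes changed at least 1.5-fold in every cell type. The median log2 fold change of the higher genes was 0.36 in mesangial cells, 0.32 in podocytes and 0.26 in gECs, and that of the lower genes was -0.27, -0.20 and -0.24, beside medians of -0.03, -0.01 and -0.02 over all genes tested. In total 6653 of the 15647 genes (42.5%) had 1 sign in all 3 cell types whether called or not, and of 1043 genes called in all 3 cell types, 368 had signs that differed. Shared genes made up 12.5% of the genes called higher in mesangial cells, 15.4% of those in podocytes and 18.0% of those in gECs, and 8.25%, 11.2% and 12.9% of the genes called lower. Nearly all higher genes were protein coding (402 of 404), as were 254 of the 271 lower genes, beside 79.2% of all genes tested. At the threshold, Tor1aip2, Gas5 and Myl9 lay just inside with a largest adjusted p of 0.0498, 0.0497 and 0.0497, and Dfna5, mt-Rnr2 and Gm12258 just outside with 0.0501, 0.0501 and 0.0503.

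The split into higher and lower genes depended on the scaling. With the deposited TPM in place of scaled counts, 145 genes were shared in the higher and 608 in the lower direction (19.3% higher, against 59.9% with counts), and 140 of the 404 higher and 225 of the 271 lower genes were among them. The median over all genes was then -0.07 in mesangial cells, -0.08 in podocytes and -0.09 in gECs. Mitochondrial rRNA, which TPM includes in its fixed sum, took a median of 9.92% of TPM in WT and 12.8% in ob/ob podocytes and 9.89% and 10.8% in gECs, but 10.8% and 10.4% in mesangial cells, and its part in the split was not tested. With RLE size factors for the counts, 393 higher and 291 lower genes were shared.

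Since a sorted population always holds a few other cells, each gene's level was set against the level that carryover would give. Carryover was estimated from the markers of each cell type as a percentage of their level in that cell type. Podocyte markers stood at a median of 2.03% of their podocyte level in WT gECs and 2.06% in ob/ob gECs, but at 0.168% and 0.0718% in mesangial cells. Mesangial markers stood at 0.166% and 0.197% in podocytes and at 0.401% and 0.394% in gECs. The gEC markers stood at 0.0579% and 0.0723% in podocytes and at 3.07% and 2.71% in mesangial cells, where the highest marker was at 36.1% in WT.

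How many shared genes lay above carryover depended on the marker taken. With the median marker, of the 404 higher genes, 351 were at least 3 times the carryover level in both genotypes of all 3 cell types, and of the 271 lower genes, 237 were. With the highest marker in place of the median, 61 higher and 22 lower genes were. The median marker is used from here on. Those under this line were spread unevenly over the cell types. Among higher genes, 34 fell under it in podocytes, 21 in gECs and 12 in mesangial cells, and among lower genes 33 fell under it in gECs, 11 in mesangial cells and 1 in podocytes. The genes with the largest folds were the most affected. Of the first 12 higher genes, ranked by the smallest of the 3 folds, 6 were above the line, and of the first 12 lower genes, of which 1 has a predicted-gene name and is not named here, 8 were. After the counts that carryover would give were subtracted from every library, 336 genes were shared in the higher and 211 in the lower direction, of which 318 and 207 were among the genes shared before.

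**Figure D1:**
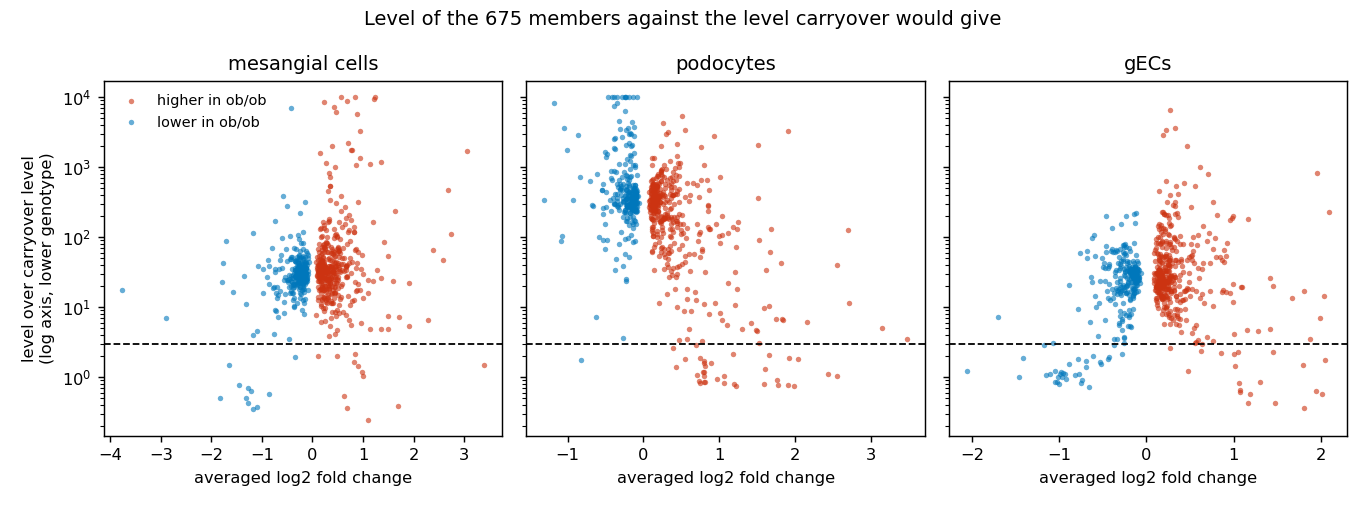
Each point is 1 of the 675 shared genes, with the averaged log2 fold change (ob/ob over WT) in the cell type on the x axis and the gene's level divided by the level carryover would give on a logarithmic y axis, for the genotype where this ratio is lower; the highest ratios are drawn at the upper edge. The dashed line marks 3 times carryover, under which 34 higher genes lie in podocytes and 33 lower genes in gECs.

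Levels of shared genes were also compared among the cell types per length, as TPM in WT libraries. The lowest cell type held a median of 32.2% of the highest for higher genes and 53.9% for lower genes, beside 51.0% over all genes tested. In 304 of the 404 higher genes and 228 of the 271 lower genes the lowest cell type reached at least 10% of the highest, as did 87.7% of all genes. The higher genes were most often lowest in podocytes (195 of 404).

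The leading higher genes show both situations. Pcdh7, a protocadherin, ranked first with log2 fold changes of 3.06 ± 0.15 (SE) in mesangial cells, 1.66 ± 0.49 in podocytes and 1.79 ± 0.51 in gECs. In mesangial cells it ran from 3.02 to 16.4 CPM (median 8.48) in the WT and from 24.2 to 135 CPM (median 76) in the ob/ob libraries. These groups did not overlap. In podocytes it ran from 0 to 0.51 CPM (median 0.0579) in WT and from 0 to 1.70 CPM (median 0.29) in ob/ob, and in gECs from 0 to 0.742 CPM (median 0.112) and from 0 to 2.35 CPM (median 0.488). Here the groups overlapped, and Pcdh7 stood at 2.06 times carryover in podocytes and 1.47 times in gECs.

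Igfbp3, a secreted protein that binds insulin-like growth factors, was highest in gECs. It ran there from 3.20 to 18.7 CPM (median 10.2) in WT and from 19.9 to 98.1 CPM (median 36.6) in ob/ob libraries, without overlap. In mesangial cells it ran from 0.0764 to 2.44 CPM (median 0.369) and from 0.822 to 19.0 CPM (median 4.26), and in podocytes from 0 to 0.792 CPM (median 0.255) and from 0.122 to 2.45 CPM (median 0.703). Both of these overlapped, and the mesangial level was 1.48 times carryover at its lowest. The log2 fold changes of Igfbp3 were 3.40 ± 0.28 in mesangial cells, 1.24 ± 0.30 in podocytes and 1.95 ± 0.17 in gECs, and a joint test over the cell types found them to differ (adjusted p = 6.76e-06, edgeR quasi-likelihood test).

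Abcb1a, a drug efflux pump, and Ppp1r3a, the subunit that targets a phosphatase to glycogen, were mesangial genes. Abcb1a ran in mesangial cells from 93.2 to 171 CPM (median 121) in WT and from 173 to 471 CPM (median 277) in ob/ob libraries, with no overlap. In podocytes it ran from 0 to 1.48 CPM (median 0.136) and from 0.035 to 2.34 CPM (median 0.593), and in gECs from 0 to 1.59 CPM (median 0.124) and from 0 to 4.41 CPM (median 0.925). These overlapped, and Abcb1a stood at 0.914 times the carryover level in podocytes and 0.563 times in gECs. Ppp1r3a ran in mesangial cells from 50.2 to 211 CPM (median 83.6) in WT and from 87.7 to 458 CPM (median 205) in ob/ob libraries, and its medians elsewhere were at most 0.626 CPM, at 0.782 times carryover in podocytes and 0.629 times in gECs. Neither gene was shared once carryover was subtracted.

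The first 12 higher genes also held Zbtb16, Prss23os, Fam26e, Ltbp2, Col8a1, Acta2 and Fam64a. Their smallest log2 fold changes ran from 0.91 to 1.17. Of these, Zbtb16, Prss23os, Ltbp2, Acta2 and Fam64a were above 3 times carryover throughout. Prss23os, Ltbp2 and Fam64a were low in every cell type, with medians of at most 3.22 CPM in each group. Markers of the proximal tubule also moved with genotype. The 9 on the list summed to between 1.53 and 7.82 CPM in WT and between 10.8 and 50.4 CPM in ob/ob podocytes, without overlap, while their ranges overlapped in mesangial cells (0.804 to 41.5 and 1.17 to 67.0 CPM) and gECs (0.916 to 8.32 and 1.31 to 116 CPM). Of the 6 tested in all 3 cell types, 1, 2 and 3 were called higher in mesangial cells, podocytes and gECs.

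**Figure D2:**
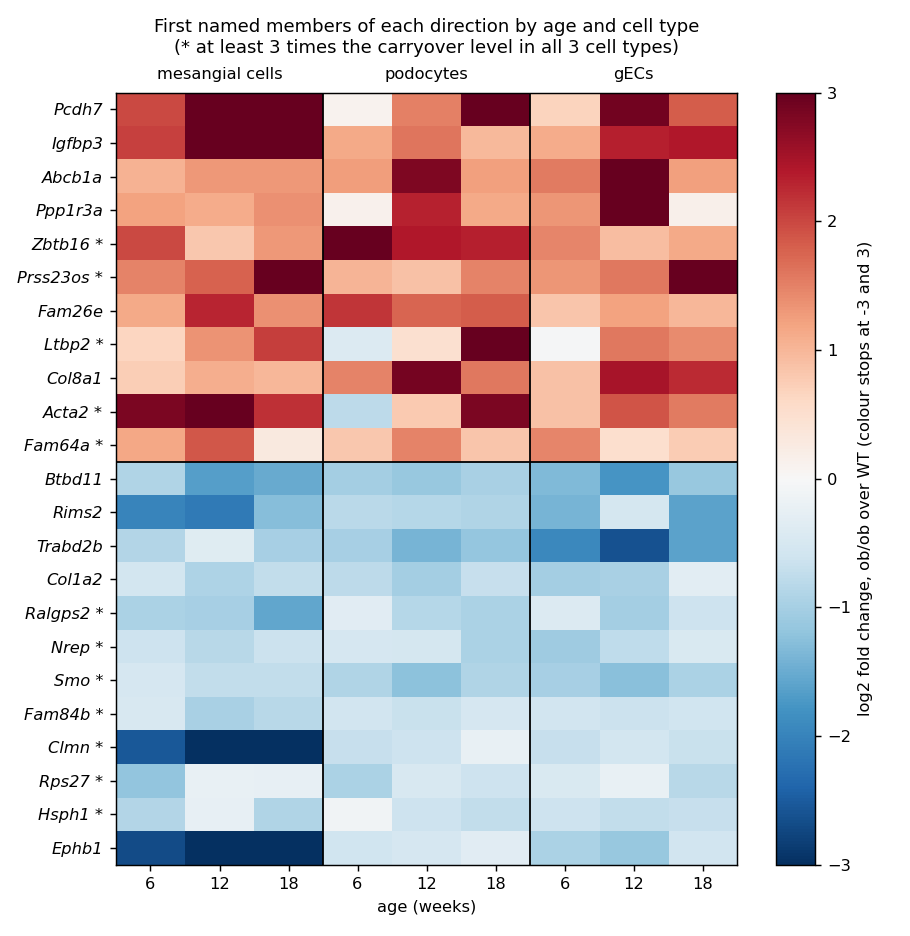
Heat map of the log2 fold change (ob/ob over WT) at 6, 12 and 18 weeks in each cell type for the named genes among the first shared genes of each direction, ranked by the smallest of their 3 averaged folds, with the colour scale stopping at -3 and 3. Stars mark genes at least 3 times above carryover in all 3 cell types, and blue cells among the higher genes run against the averaged direction: at 6 weeks Acta2 was at -0.79 in podocytes and Ltbp2 at -0.42 in podocytes and -0.03 in gECs.

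Among higher genes present at comparable levels, Trpv4, a calcium channel that opens on stretch and osmotic change, changed by like amounts in each cell type. Its log2 fold changes were 0.86 ± 0.06 in mesangial cells, 1.04 ± 0.10 in podocytes and 0.89 ± 0.09 in gECs. In mesangial cells Trpv4 ran from 10.2 to 21.8 CPM (median 16.2) in WT and from 21.1 to 47.8 CPM (median 31.5) in ob/ob libraries, and in podocytes from 2.20 to 6.93 CPM (median 4.77) and from 5.96 to 14.4 CPM (median 10.3). In gECs it ran from 7.86 to 23.0 CPM (median 14.2) and from 14.0 to 41.7 CPM (median 25.8). The ranges overlapped in each cell type, and in gECs the lowest ob/ob library lay under the WT median. Lpcat2, an acyltransferase of membrane lipids, completed the first 6 genes of this kind, with 1.19 ± 0.17, 0.87 ± 0.13 and 1.05 ± 0.40, but stood at 2.24 times carryover in gECs.

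Among the leading lower genes, Btbd11, Rims2 and Trabd2b were podocyte genes found at low levels in the other cell types. Ralgps2, Nrep, Fam84b, Rps27 and Hsph1 instead had their highest WT median in gECs. For Fam84b it was 21.8 CPM there, against 12.4 in mesangial cells and 4.39 in podocytes. Btbd11, whose protein carries a BTB domain and ankyrin repeats, ran in podocytes from 19.5 to 48.9 CPM (median 30.9) in WT and from 6.72 to 23.3 CPM (median 16.1) in ob/ob libraries. It ran in mesangial cells from 1.70 to 5.03 CPM (median 3.42) and from 0.429 to 3.44 CPM (median 1.26), and in gECs from 0.353 to 5.97 CPM (median 1.68) and from 0.185 to 1.94 CPM (median 0.498). All 3 pairs of groups overlapped. Its log2 fold changes were -1.36 ± 0.16 in mesangial cells, -1.05 ± 0.09 in podocytes and -1.41 ± 0.26 in gECs, where its level was 1.87 times carryover.

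Rims2, a scaffold of the secretory machinery, ran in podocytes from 2.56 to 9.21 CPM (median 5.11) in WT and from 0.766 to 6.59 CPM (median 3.1) in ob/ob libraries. Its medians fell from 0.677 to 0.169 CPM in mesangial cells and from 0.399 to 0.17 CPM in gECs. Trabd2b, a membrane protease that inactivates Wnt proteins, ran in podocytes from 87.5 to 139 CPM (median 107) in WT and from 33.9 to 71.8 CPM (median 49.4) in ob/ob libraries. The podocyte groups of Trabd2b did not overlap, while its ranges overlapped in mesangial cells (1.23 to 9.82 and 0.525 to 5.22 CPM) and in gECs (1.02 to 18.9 and 0.107 to 2.79 CPM). In gECs, Rims2 stood at 2.88 and Trabd2b at 1.21 times carryover.

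Col1a2, a chain of type I collagen, was lower in all 3 cell types although most matrix genes were higher. It ran in mesangial cells from 68.8 to 165 CPM (median 142) in WT and from 37.6 to 137 CPM (median 82.1) in ob/ob libraries, and in podocytes from 170 to 348 CPM (median 228) and from 71.6 to 224 CPM (median 125). In gECs it ran from 1.94 to 32.6 CPM (median 5.25) and from 1.48 to 9.87 CPM (median 4.82), at 1.11 times carryover. Groups overlapped in each cell type. After subtraction of carryover, Col1a2 in gECs had a log2 fold change of 0.93 (adjusted p = 0.362, edgeR quasi-likelihood test).

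Smo, the membrane protein that transmits Hedgehog signals, ran in podocytes from 216 to 336 CPM (median 293) in WT and from 90.5 to 191 CPM (median 143) in ob/ob libraries, without overlap. In mesangial cells it ran from 28.6 to 62.6 CPM (median 49.1) and from 20.0 to 46.9 CPM (median 30.6), and in gECs from 12.1 to 48.0 CPM (median 24.7) and from 7.01 to 21 CPM (median 12.6). The groups overlapped in both, and the gEC level was 3.09 times carryover at its lowest. Smo lies 0.681 Mb from Lep on chromosome 6.

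Of the other first lower genes, Ralgps2, Nrep, Fam84b, Clmn, Rps27 and Hsph1 were above 3 times carryover throughout, and Ephb1, an ephrin receptor, was at 1.55 times in gECs. Ephb1 ran in mesangial cells from 45.6 to 97.3 CPM (median 69.6) in WT and from 0.534 to 14.7 CPM (median 5.00) in ob/ob libraries, without overlap, a log2 fold change of -3.77 ± 0.16 against -0.48 ± 0.03 in podocytes. Clmn, an actin-binding membrane protein, likewise changed by -2.91 ± 0.17 in mesangial cells and -0.51 ± 0.10 in podocytes. The joint test over cell types gave adjusted p = 9.29e-35 for Ephb1 and 2.75e-26 for Clmn (edgeR quasi-likelihood test). Rps27 encodes a ribosomal protein with near-identical copies elsewhere in the genome, so its counts are uncertain. Its level also went with age, with WT medians in mesangial cells of 39.3 CPM at 6, 109 at 12 and 17.4 at 18 weeks.

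**Figure D3:**
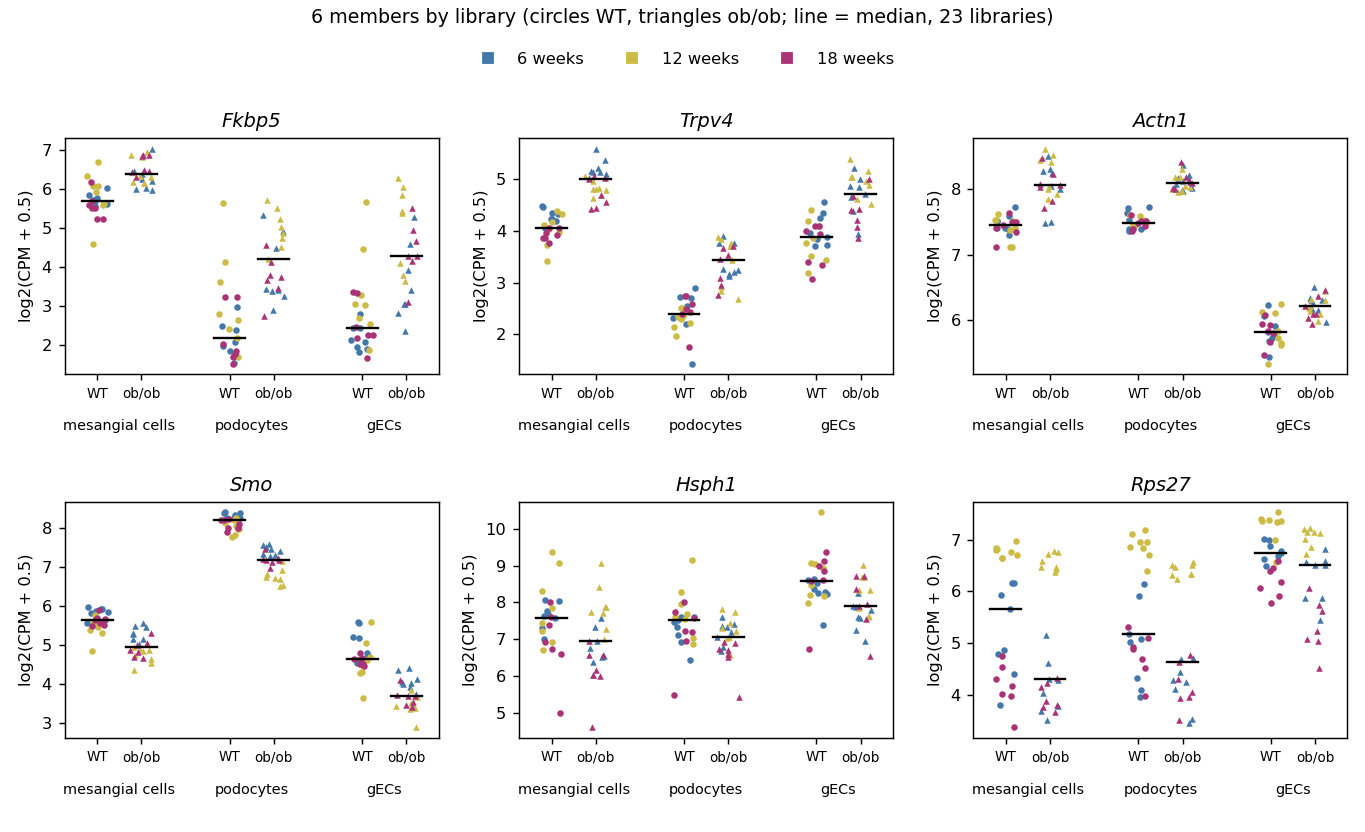
Level of 6 shared genes in every library as log2(CPM + 0.5), with WT (circles) and ob/ob (triangles) side by side in each cell type, colours for age and a line at the median of 23 libraries. Fkbp5, Trpv4 and Actn1 sit higher and Smo, Hsph1 and Rps27 lower in ob/ob libraries of every cell type, with overlap between genotypes in most panels.

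No shared gene separated all WT from all ob/ob libraries in all 3 cell types. Within a cell type, 25 higher genes did so in mesangial cells, 12 in podocytes and 2 in gECs, and 5, 5 and 0 lower genes did. Over all genes tested, 0.441%, 0.396% and 0.0575% did so in the higher and 0.147%, 0.0831% and 0.0128% in the lower direction.

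The MRTF/SRF targets, actin-binding and contractile genes whose coactivators are released when actin polymerises, held the most shared genes. This list is partly one that the study itself drew on with these samples, so its direction is not independent evidence. Of 28 genes tested, 26 were called higher in mesangial cells, 18 in podocytes and 19 in gECs, and 0 were called lower in any (18.5%, 15.4% and 12.3% of all genes were called higher and 18.9%, 14.5% and 11.5% lower). In all, 14 genes were shared: Acta2, Mcam, Myl9, Actn1, Zyx, Cnn2, Pdlim7, Flna, Itga5, Tagln2, Csrp1, Fhl1, Cald1 and Wdr1. The list's median log2 fold change was 0.44 in mesangial cells, 0.33 in podocytes and 0.21 in gECs, and 13 genes were shared with RLE size factors but 8 with TPM. With RLE 2 genes were called lower in podocytes, and with TPM 4 in podocytes and 1 in gECs. Without the libraries that stood apart 11 were shared, and with marker sums as covariates 1 was, where 2 of 29 tested were called higher in podocytes. At 6, 12 and 18 weeks alone 7, 5 and 2 were shared, and 2 were called lower in podocytes at 12 weeks. In female and in male libraries alone 6 were shared. The list's summed level in podocytes had medians of 11900 CPM in WT and 12300 CPM in ob/ob libraries. By age these were 11800 and 13900 at 6 weeks, 13000 and 12200 at 12 weeks and 11700 and 11800 at 18 weeks.

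Smooth muscle markers moved beside this list in podocytes. Of the 7 tested, 1 of which, Acta2, is in both lists, 6 were called higher in podocytes, 2 in mesangial cells and 1 in gECs, and 0, 3 and 1 lower. The 8 markers summed to between 1460 and 1770 CPM in WT and between 1380 and 2020 CPM in ob/ob podocytes, between 2180 and 3290 and between 2290 and 3280 CPM in mesangial cells, and between 203 and 384 and between 186 and 311 CPM in gECs. Acta2 had medians of 0.835 and 1.90 CPM in WT and ob/ob podocytes, so nearly all of the podocyte sum came from the other markers. None of the 8 had a median of 0 in any group, and the part of smooth muscle cells in the shared calls was not tested.

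Of these 14 genes, 11 were above 3 times carryover throughout and Mcam, Myl9 and Fhl1 were not, and 9 remained shared after subtraction. Actn1, an actin crosslinker, ran in podocytes from 164 to 212 CPM (median 178) in WT and from 247 to 340 CPM (median 272) in ob/ob libraries, without overlap. It ran in mesangial cells from 138 to 211 CPM (median 174) and from 178 to 391 CPM (median 267), and in gECs from 40.1 to 75.4 CPM (median 56.4) and from 61.2 to 90.2 CPM (median 73.7), with overlap. The log2 fold changes of Actn1 were 0.69 ± 0.07, 0.61 ± 0.04 and 0.38 ± 0.06 in mesangial cells, podocytes and gECs.

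Acta2, the smooth muscle actin, had its largest fold in mesangial cells (2.74 ± 0.20). It ran there from 3.48 to 25.8 CPM (median 11.5) in WT and from 22.3 to 291 CPM (median 78.6) in ob/ob libraries, and in gECs from 1.49 to 6.02 CPM (median 3.21) and from 2.84 to 25.8 CPM (median 8.79). In podocytes it ran from 0 to 6.95 CPM (median 0.835) and from 0.0988 to 7.64 CPM (median 1.90). All 3 pairs overlapped, and the podocyte call rested on 18 weeks: without 18 weeks the log2 fold change was -0.01, against 0.94 ± 0.36 over all ages, and Acta2 was not shared after subtraction of carryover. Myl9, the regulatory light chain of myosin, reached medians of 350 and 463 CPM in WT and ob/ob mesangial cells but at most 2.62 CPM in podocytes and gECs, at 0.654 times carryover in gECs.

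Promoters of these genes were searched for the CArG box, the site that serum response factor binds (CC, then 6 bases that are each A or T, then GG, which reads the same on both strands). RefSeq promoter windows on GRCm38, from 250 bases before to 50 after a start, were found for 9888 of the 15647 genes, and 154 of these (1.56%) held a CArG box. All 14 shared MRTF/SRF genes had a window, and 3 of them (21.4%) held the box, as did 5 of 12 with a window (41.7%) among the list's genes that were not shared. Over all shared genes, it stood in 10 of 312 higher (3.21%) and 1 of 210 lower genes (0.476%). The 3 windows are shown because they carry the motif in genes called higher in all 3 cell types. Of these genes, Myl9 and Fhl1 were not above 3 times carryover throughout, and Cnn2 was. The box is in capitals and strands are read in the direction of the gene, at chr2:156775263-156775352 (plus strand) for Myl9, chr10:79988504-79988593 (plus strand) for Cnn2 and chrX:56779541-56779630 (plus strand) for Fhl1.
Myl9: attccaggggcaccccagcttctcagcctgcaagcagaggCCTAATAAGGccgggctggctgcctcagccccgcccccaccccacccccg
Cnn2: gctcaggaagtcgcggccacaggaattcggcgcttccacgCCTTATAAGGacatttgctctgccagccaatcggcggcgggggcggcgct
Fhl1: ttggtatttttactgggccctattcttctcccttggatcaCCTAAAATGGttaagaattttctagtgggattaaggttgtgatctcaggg
The box ends 151, 46 and 92 bases before the start in the 3 genes.

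The heat shock genes, chaperones that refold damaged proteins, held the largest group of lower genes. Of 16 tested, 9 were called lower in mesangial cells, 13 in podocytes and 10 in gECs, and 1, 1 and 0 higher. A total of 6 were shared, all lower and all above 3 times carryover: Hsph1, Hspa1a, Dnajb1, Dnaja1, Hspd1 and Hspa8. The list's median log2 fold change was -0.21 in mesangial cells, -0.34 in podocytes and -0.36 in gECs, and 6 genes were shared with RLE size factors and with TPM too, 5 after subtraction of carryover, 8 without the libraries that stood apart and 0 with marker sums as covariates. In female libraries alone 5, 13 and 5 of the 16 were called lower in mesangial cells, podocytes and gECs and 2 were shared, and in male libraries alone 3, 2 and 1 were called lower and 0 were shared. Of all genes, 14.9%, 6.85% and 6.92% were called lower in male libraries. In all 3 cell types 0.596% were called lower in male and 0.173% in female libraries. At single ages 0 were shared, with 1, 3 and 0 called lower at 6 weeks, 0, 8 and 2 at 12 weeks and 2, 6 and 0 at 18 weeks. The difference between the sexes was not called for any shared gene.

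Hspa1a, the inducible HSP70, ran in mesangial cells from 390 to 7070 CPM (median 5150) in WT and from 135 to 5730 CPM (median 3310) in ob/ob libraries. It ran in podocytes from 63.5 to 3860 CPM (median 1500) and from 26.7 to 1500 CPM (median 710), and in gECs from 1000 to 9170 CPM (median 4090) and from 650 to 5670 CPM (median 2870). Every pair of groups overlapped widely, and the log2 fold changes were -0.74 ± 0.19, -1.08 ± 0.24 and -0.47 ± 0.17. Hsph1, a large HSP70-like chaperone, had median levels of 192 and 123 CPM in WT and ob/ob mesangial cells, 184 and 133 in podocytes and 381 and 239 in gECs, with log2 fold changes of -0.68 ± 0.19, -0.49 ± 0.15 and -0.68 ± 0.17. Dnajb1 and Dnaja1, which hand clients to HSP70, changed by -0.46 ± 0.18 and -0.44 ± 0.10 in mesangial cells, -1.08 ± 0.17 and -0.53 ± 0.10 in podocytes and -0.46 ± 0.11 and -0.35 ± 0.09 in gECs.

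Heat shock genes and immediate early genes are known to respond to the digestion of a tissue as well as to the state of its cells. Of 24 immediate early genes tested, 15 were called lower in mesangial cells, 10 in podocytes and 0 in gECs, and none was shared. Heat shock genes also varied widely among the libraries of a group. The 16 genes summed to between 2840 and 22900 CPM in WT and between 2550 and 18900 CPM in ob/ob mesangial cells, between 2550 and 16900 and between 2590 and 9170 CPM in podocytes, and between 5450 and 29900 and between 4500 and 16800 CPM in gECs. The part of tissue handling in the difference was not tested.

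Heat shock factor binds repeats of GAA and its complement TTC, and pairs of these units (GAANNTTC or TTCNNGAA, read on both strands) stood in 13.9% of all promoter windows, in 45 of 312 higher genes (14.4%) and in 27 of 210 lower genes (12.9%). Among the 5 shared heat shock genes with a window, 4 held a pair (80.0%), and so did 5 of 6 heat shock genes that were not shared (83.3%). The longer form of 3 units (the first pair followed by NNGAA, or its reverse complement, which contains both pairs) stood in 0.597% of all windows, in 0 of the higher and 5 of the lower genes with a window (2.38%), which are Smo, Hsph1, Hspd1, Tra2b and Mga, the last 2 named here after their values were seen. The sequences before the start are shown for the 4 heat shock genes with a pair, with matches in capitals, at chr5:149636337-149636409 (minus strand) for Hsph1, chr17:34972213-34972300 (minus strand) for Hspa1a, chr4:40722304-40722391 (plus strand) for Dnaja1 and chr1:55088019-55088116 (minus strand) for Hspd1.
Hsph1: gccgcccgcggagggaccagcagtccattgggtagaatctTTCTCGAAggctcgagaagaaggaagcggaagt
Hspa1a: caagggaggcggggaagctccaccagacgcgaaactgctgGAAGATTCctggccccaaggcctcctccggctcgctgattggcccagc
Dnaja1: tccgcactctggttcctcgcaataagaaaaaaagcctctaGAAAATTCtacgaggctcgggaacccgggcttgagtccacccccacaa
Hspd1: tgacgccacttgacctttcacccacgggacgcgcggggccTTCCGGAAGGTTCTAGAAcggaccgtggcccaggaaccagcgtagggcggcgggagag
In the stretches shown, Hspd1 holds 3 overlapping matches and the others 1 each. The longer form in Hsph1 lies after the start, outside the stretch shown, where that window holds 2 further pairs. The match of Hsph1 lies 25 bases before the start, and those of Hspa1a, Dnaja1 and Hspd1 lie 96, 116 and 126 bases before it.

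The glucocorticoid response held 3 shared genes, all higher and all above 3 times carryover: Zbtb16, Fkbp5 and Glul. Of 22 genes tested, 7 were called higher in mesangial cells, 9 in podocytes and 11 in gECs, and 6, 6 and 0 lower. Fkbp5, a chaperone partner of the glucocorticoid receptor that the receptor itself induces, ran in podocytes from 2.37 to 49.5 CPM (median 3.99) in WT and from 6.17 to 52.0 CPM (median 17.9) in ob/ob libraries. It ran in gECs from 2.68 to 50.1 CPM (median 4.90) and from 4.66 to 77.5 CPM (median 18.8), and in mesangial cells from 23.6 to 104 CPM (median 51.0) and from 62.0 to 131 CPM (median 83.6). The groups overlapped, with the highest WT podocyte and gEC libraries at 12 weeks, and the log2 fold changes were 0.72 ± 0.10 in mesangial cells, 1.68 ± 0.26 in podocytes and 1.81 ± 0.28 in gECs.

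Zbtb16, a zinc-finger repressor also induced by glucocorticoids, had medians of 17.4 and 40.9 CPM in WT and ob/ob mesangial cells, 0.374 and 4.18 in podocytes and 25.3 and 47.7 in gECs. Its libraries spread widely within a group, as from 5.53 to 195 CPM in WT and from 6.39 to 279 CPM in ob/ob mesangial cells, and the log2 fold changes were 1.36 ± 0.40, 2.71 ± 0.43 and 1.17 ± 0.36. Glul, glutamine synthetase, changed by 0.24 ± 0.07, 0.32 ± 0.06 and 0.27 ± 0.06. With TPM, 1 gene of the list was shared in the higher and 1 in the lower direction.

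Glycolysis genes were mostly called in the higher direction. Of 18 tested, 8 were called higher in mesangial cells, 14 in podocytes and 10 in gECs, and 1, 0 and 1 lower. The 6 shared genes, all higher and all above 3 times carryover, were Ldha, Pkm, Eno1, Pgam1, Aldoa and Hk1. Their folds were small, as for Ldha, lactate dehydrogenase, with medians of 78.2 and 95.5 CPM in mesangial cells, 46.4 and 59.5 in podocytes and 126 and 158 in gECs (log2 fold changes of 0.24 ± 0.05, 0.33 ± 0.05 and 0.28 ± 0.04). Pkm, pyruvate kinase, changed most in podocytes, by 0.58 ± 0.04, against 0.17 ± 0.04 in mesangial cells and 0.27 ± 0.05 in gECs, and the joint test found a difference between cell types (adjusted p = 2.11e-08, edgeR quasi-likelihood test). Eno1 and Pgam1 changed by 0.33 ± 0.05 and 0.13 ± 0.05 in mesangial cells, 0.16 ± 0.04 and 0.13 ± 0.04 in podocytes and 0.16 ± 0.06 and 0.19 ± 0.06 in gECs. With TPM, 1 gene of the list was shared, and with marker sums as covariates 0 were. In female libraries alone 4, 8 and 2 were called higher and 0 were shared, and in male libraries alone 8, 10 and 8 of 17 were called higher and 4 were shared. Of all genes, 16.2%, 9.59% and 8.9% were called higher in male libraries.

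Interstitial matrix genes were mostly called higher (16, 10 and 13 of 19 in mesangial cells, podocytes and gECs, with 1, 3 and 4 lower), but their shared calls lay mostly near carryover. Of the 8 shared genes, 7 higher and Col1a2 lower, 1 was above 3 times carryover throughout, and that gene was Fn1. Col12a1, a collagen that bridges fibrils, ran in mesangial cells from 165 to 361 CPM (median 267) in WT and from 655 to 4130 CPM (median 1610) in ob/ob libraries, without overlap. In podocytes it ran from 0.14 to 2.60 CPM (median 0.481) and from 0.105 to 20.8 CPM (median 4.02), at 1.05 times carryover. Col8a1 and Col5a1, of small and fibrillar collagens, stood at 0.741 and 1.03 times carryover in podocytes and had log2 fold changes in mesangial cells of 0.95 ± 0.08 and 0.71 ± 0.04. After subtraction, 3 matrix genes remained shared.

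Basement membrane genes were called in both directions. Of 19 tested, 11, 11 and 7 were called higher and 0, 4 and 5 lower. The shared genes were Lama2, Col4a2, Col4a1 and Nid1, all higher. Col4a2 and Col4a1, the chains of the ubiquitous type IV collagen, lay above 3 times carryover, at 9.66 and 3.06 times in podocytes. Col4a2 ran in podocytes from 47.7 to 141 CPM (median 69.9) in WT and from 125 to 358 CPM (median 234) in ob/ob libraries, with a log2 fold change of 1.60 ± 0.09 there, 0.82 ± 0.05 in mesangial cells and 0.42 ± 0.06 in gECs. Those folds differed between cell types (adjusted p = 1.20e-18 in the joint edgeR quasi-likelihood test). Lama2 and Nid1 stood at 0.831 and 1.67 times carryover in podocytes.

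Of 20 angiogenic genes tested, 8, 7 and 9 were called higher and 2, 2 and 4 lower. Jag1, Pdgfa, Pdgfb and Angpt2 were shared in the higher and Nrp1, a coreceptor for VEGF that is named here after its values were seen, in the lower direction. Jag1, a ligand of Notch receptors, had medians of 53.6 and 105 CPM in WT and ob/ob mesangial cells, 2.20 and 3.58 in podocytes and 55.8 and 103 in gECs (log2 fold changes of 1.00 ± 0.08, 0.79 ± 0.09 and 0.98 ± 0.09). Pdgfa, a growth factor for mesangial and smooth muscle cells, rose from a median of 0.352 to 3.77 CPM in podocytes, from 52.2 to 72.3 in mesangial cells and from 9.85 to 12.9 in gECs. The podocyte change of Pdgfa (3.48 ± 0.21) was larger than the others (0.53 ± 0.06 and 0.32 ± 0.06; adjusted p = 9.84e-34 in the joint edgeR quasi-likelihood test), and the podocyte groups of Pdgfa did not overlap, with its level there at 3.45 times carryover at the lowest. Pdgfb changed by 0.32 ± 0.09, 0.61 ± 0.11 and 0.33 ± 0.07, and Angpt2, an antagonist of the Tie2 receptor, was at 1.16 times carryover in podocytes.

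Among TGF-beta and BMP genes, 10, 6 and 11 of 19 were called higher and 1, 2 and 2 lower. The shared genes included Smad7, Bmp4 and Smad6. Smad7, an inhibitory Smad, had medians of 70.8 and 121 CPM in WT and ob/ob mesangial cells, 8.89 and 11.9 in podocytes and 162 and 238 in gECs. Bmp4, a ligand, stood at 3.26 and Smad6, the second inhibitory Smad, at 2.01 times carryover at the lowest, in podocytes and mesangial cells respectively.

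Lysosomal genes were called higher in 21 of 23 cases in mesangial cells, 6 in podocytes and 11 in gECs, and 0, 2 and 1 lower. The list's median log2 fold change was 0.33 in mesangial cells, 0.06 in podocytes and 0.13 in gECs. A total of 5 were shared, among them Lgmn, Gusb, Ctsd and Ctsa, all above 3 times carryover and all shared after subtraction. Lgmn, the protease legumain, ran in podocytes from 57.9 to 88.3 CPM (median 73.4) in WT and from 100 to 196 CPM (median 126) in ob/ob libraries, without overlap, and changed by 0.90 ± 0.07 in mesangial cells, 0.80 ± 0.05 in podocytes and 0.39 ± 0.06 in gECs. Gusb changed by 0.35 ± 0.04, 0.45 ± 0.05 and 0.27 ± 0.05, and Ctsd by 0.49 ± 0.04, 0.09 ± 0.03 and 0.52 ± 0.05. With TPM, the podocyte change of Ctsd was -0.03 and 2 genes of the list were shared, and without the libraries that stood apart 3 were.

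Smaller lists held few shared genes. Plin2, which coats lipid droplets, and Srebf1, a regulator of lipid synthesis, were shared among 29 fatty acid genes, with Srebf1 at -0.02 in gECs when TPM was used. Tnfaip2 and Icam1 were shared among 14 NF-kB genes, with Icam1, the leukocyte adhesion molecule, at 2.87 times carryover in podocytes. Of 20 insulin and FOXO genes, Igfbp3 was higher and Foxo1, a transcription factor restrained by insulin, lower, by -0.68 ± 0.05 in mesangial cells and -0.14 ± 0.05 and -0.14 ± 0.03 in podocytes and gECs. The YAP/TEAD targets were mixed, with Igfbp3, Asap1 and Crim1 higher and Dock5 and Ptpn14 lower. Perp was among the shared genes of 14 p53 and senescence genes. No gene was shared among 18 circadian clock, 21 interferon response, 17 MHC class I, 16 leptin signalling and 13 mitochondrial genes. The antioxidant, unfolded protein, amino acid stress, hypoxia, oxidative phosphorylation and proliferation lists held 1 each, among them Me1, Sel1l, Mthfd2, P4ha2 and Ccnb2, named here after their values were seen.

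Cholesterol synthesis was the list with the most genes called in opposite directions, 9 of 24, and held no shared gene. Of the 24, 11 were called lower in mesangial cells and 8 in gECs, and 11 were called higher in podocytes. Stard4, a sterol carrier, had log2 fold changes of -0.53 in mesangial cells, 0.82 in podocytes and -0.26 in gECs (adjusted p = 0.00274, 0.00705 and 0.0005, edgeR quasi-likelihood test).

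**Figure D4:**
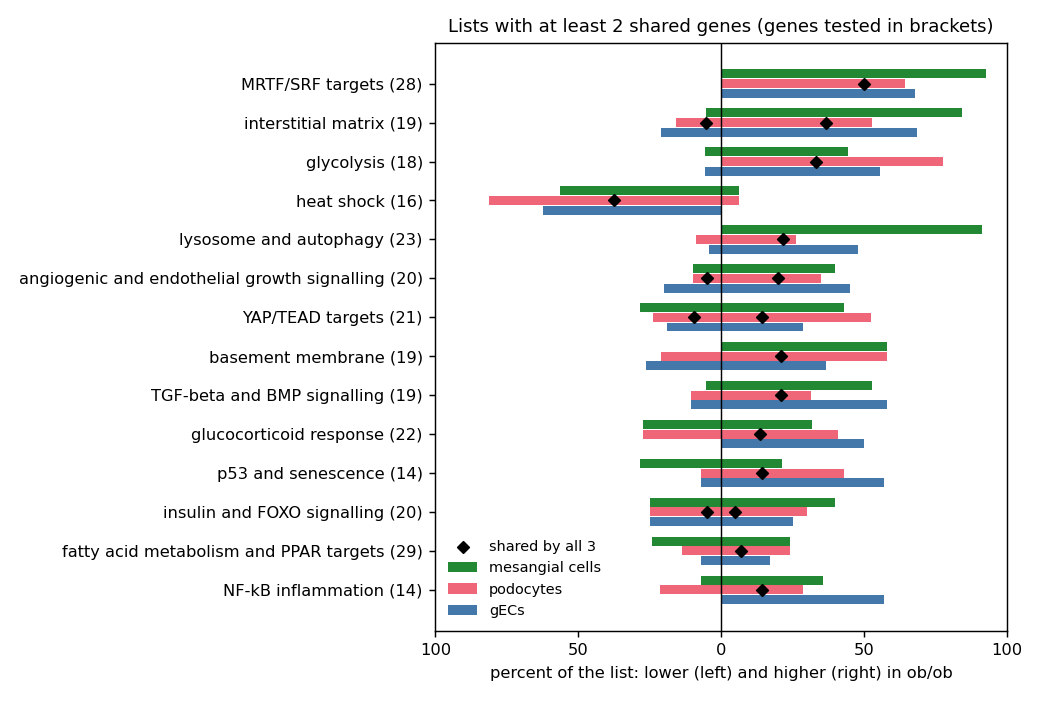
Bars give the percentage of each list's tested genes (number in brackets) called lower (to the left) and higher (to the right) in ob/ob mesangial cells, podocytes and gECs, and diamonds the percentage shared by all 3. The MRTF/SRF targets reach 14 of 28 shared in the higher and the heat shock genes 6 of 16 in the lower direction.

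Markers of the sorted cells also differed with genotype in cell types that they do not mark. Of 10 podocyte markers, 7 were called lower in mesangial cells, and their summed level there ran from 159 to 272 CPM in WT and from 125 to 194 CPM in ob/ob libraries. Ptpro, a podocyte phosphatase, and Pdgfrb, the mesangial PDGF receptor, were themselves among the shared lower genes, with mean levels of 2.33 CPM (Ptpro) in mesangial cells against 2200 in podocytes, and of 14.2 (Pdgfrb) in podocytes against 2990 in mesangial cells. Mesangial markers were called lower for 3 of 8 in mesangial cells, 1 in podocytes and 3 in gECs and higher for 1 in each, and gEC markers higher for 5, 1 and 5 of 11 and lower for 1, 0 and 3. Of all genes tested, 18.9%, 14.5% and 11.5% were called lower and 18.5%, 15.4% and 12.3% higher in mesangial cells, podocytes and gECs. Single calls among 8 or 11 markers do not stand out from these shares. Of 3 markers of other endothelium tested, 3 were called higher in gECs, where the 8 on the list summed to between 284 and 642 CPM in WT and between 485 and 995 CPM in ob/ob libraries. Of 3 parietal epithelium markers tested, 2 were called higher in mesangial cells, where the 5 on the list summed to between 24.2 and 67.9 CPM in WT and between 76.1 and 510 CPM in ob/ob libraries, and 2 in podocytes. The 11 immune markers summed to at most 13.6 CPM in mesangial cells and podocytes and ran from 11 to 31.4 CPM in WT and from 8.32 to 108 CPM in ob/ob gECs, with Cd52 and Cd3e at a median of 0 in every group. Renin cell markers had 1 gene tested, higher in mesangial cells and podocytes, and of 3 erythroid markers tested 2 were higher in mesangial cells. The 4 distal nephron markers tested had median log2 fold changes of 0.16, -0.04 and 0.28 in mesangial cells, podocytes and gECs, without a call, and no neutrophil or adipocyte marker was tested. When marker sums of the other sorted cells and of smooth muscle, tubule and immune cells were added to the models as covariates, 37 higher and 5 lower genes remained, and 227 genes were called in podocytes in place of 5041. Those sums followed genotype closely, holding 85.3% of its variance in podocytes, 66.9% in mesangial cells and 32.3% in gECs, so that in podocytes the effect of genotype and that of the marker sums cannot be told apart.

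The choice of genes in 1 sex and their test in the other gives values that the choice did not use. In female libraries alone, 110 genes were shared in the higher direction (0.704% of the genes tested) and 27 in the lower (0.173%). Of the higher ones, 109 were tested in males, and 108 of these had the same sign in all 3 cell types of males. In males, 104 were called higher in mesangial cells, 88 in podocytes and 91 in gECs, and 71 in all 3 (16.2%, 9.59% and 8.9% of all genes were called higher in male libraries, and 1.44% in all 3). Of 27 genes chosen as lower in females, 27 had the same sign in all 3 cell types of males, with 22, 16 and 16 called and 10 called in all 3 (14.9%, 6.85%, 6.92% and 0.596% of all genes). The higher genes had median log2 fold changes in males of 0.56 in mesangial cells, 0.44 in podocytes and 0.42 in gECs, beside -0.03, -0.01 and -0.02 over all genes. In the other direction, of 227 higher and 94 lower genes chosen in males, 215 and 91 had the same sign in all 3 cell types of females. The 71 and 10 called in all 3 are by construction the same genes as before, here a smaller share of the genes chosen. Libraries of the 2 sexes come from different mice, and carryover was not removed from either.

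**Figure D5:**
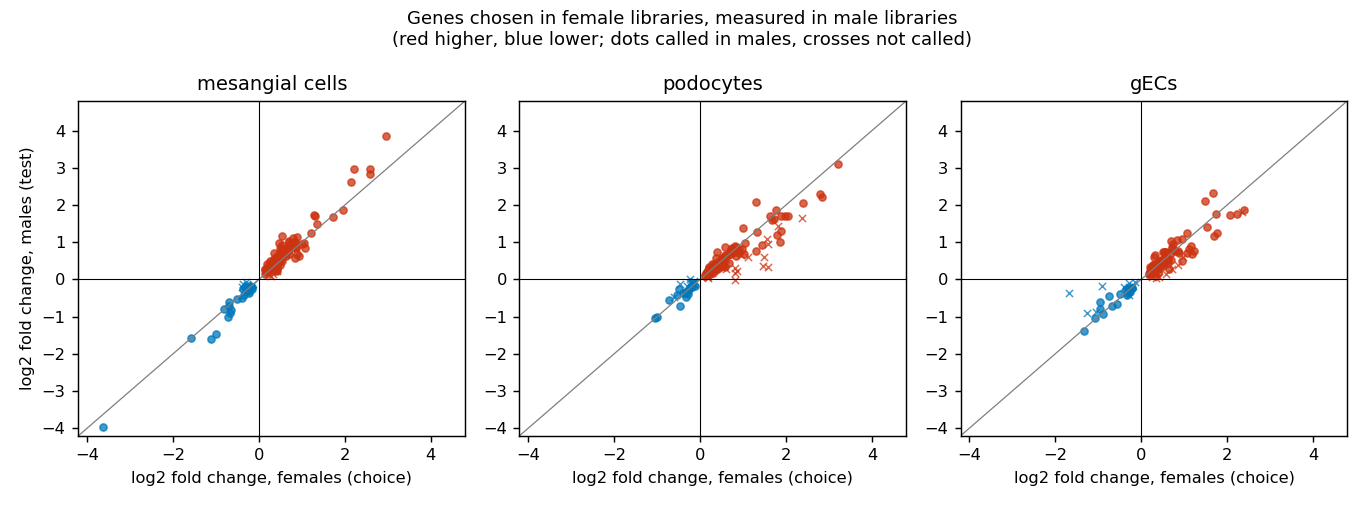
Log2 fold change (ob/ob over WT) in female libraries, where the genes were chosen, on the x axis and in male libraries on the y axis, for 109 higher (red) and 27 lower (blue) genes in each cell type; dots were called in males and crosses were not. Points follow the diagonal, and 104, 88 and 91 of the higher genes were called in male mesangial cells, podocytes and gECs.

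In this test Fkbp5 was higher in males by 0.98 in mesangial cells, 2.07 in podocytes and 2.10 in gECs (adjusted p = 4.57e-06, 1.79e-05 and 7.42e-05, edgeR quasi-likelihood test). Trpv4 was higher by 0.97, 0.77 and 0.72 (adjusted p = 2.74e-09, 0.00113 and 0.000114), and Jag1 by 1.15, 0.85 and 0.77 (adjusted p = 7.76e-08, 4.17e-05 and 2.19e-05). Smo was lower, with log2 fold changes of -0.60, -1.01 and -1.04 (adjusted p = 2.00e-05, 1.22e-11 and 1.67e-06). Actn1 rose by 0.84, 0.63 and 0.39 (adjusted p = 3.48e-08, 1.03e-09 and 0.00734), as did Lgmn by 0.98, 0.72 and 0.43 (adjusted p = 7.77e-08, 5.88e-09 and 0.00121). Acta2, chosen in females too, was called in male mesangial cells and gECs, but in male podocytes it had 0.34 with an adjusted p of 0.749. Of the shared heat shock genes, Dnaja1 and Hspa8 were chosen in females. In males Dnaja1 had -0.50, -0.46 and -0.41 (adjusted p = 0.0101, 0.0736 and 0.079), and Hspa8 had -0.21, -0.18 and -0.21 (adjusted p = 0.234, 0.489 and 0.222), called in no cell type.

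No shared gene had an effect of genotype that differed between the sexes by the edgeR quasi-likelihood test. Over all genes, 1 did in mesangial cells (0.00566%) and 0 in podocytes and gECs. At an unadjusted p under 0.05, 114 of the shared genes differed in mesangial cells (16.9%, against 8.3% of all genes), 43 in podocytes (6.38%, against 3.66%) and 52 in gECs (7.7%, against 4.4%).

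Most shared genes kept their sign at each age. At 6 weeks 384 of the 404 higher genes had a positive fold in all 3 cell types, 378 at 12 weeks and 401 at 18 weeks, and of the lower genes 260, 263 and 260 of 271 had a negative fold. Called in all 3 cell types at a given age were 80, 108 and 76 of the higher and 22, 50 and 18 of the lower genes at 6, 12 and 18 weeks (0.62%, 0.773% and 0.524% of all genes in the higher and 0.147%, 0.352% and 0.115% in the lower direction). These ages were part of the average that chose the genes. A total of 26 higher and 3 lower genes were called in all 9 comparisons of cell type and age (0.166% and 0.0192% of all genes). The higher ones include Fkbp5, Trpv4, Jag1, Actn1 and Col4a2, and the lower ones are Smo, Mga and Tet1, the last 2 named here after their values were seen.

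The change of the effect between 6 and 18 weeks was not used in the choice. It was called for 6 shared genes in mesangial cells, 3 in podocytes and 2 in gECs (0.462%, 0.19% and 0.104% of all genes). In mesangial cells the effect grew for Pcdh7, from a log2 fold change of 1.97 at 6 weeks to 3.80 at 18 weeks (adjusted p = 0.00652, edgeR quasi-likelihood test), for Col12a1 from 1.88 to 3.18 (adjusted p = 0.00809) and for Ephb1 from -2.68 to -4.40 (adjusted p = 0.0143). In the same cells Plin2, which coats lipid droplets, went from 0.17 to 0.74 (adjusted p = 0.0498). In podocytes the effect went down for the focal adhesion gene Tgfb1i1, from 0.84 to -0.17 (adjusted p = 0.00687), and for Tagln2, an actin-binding protein, from 0.72 to 0.08 (adjusted p = 0.0349), and for Tfrc, the transferrin receptor, from 0.19 to -0.88 (adjusted p = 0.0028). In gECs it grew for Tril, a receptor accessory protein, from 0.13 to 1.36 (adjusted p = 0.028) and for Zfp445, a zinc-finger protein, from -0.19 to -0.70 (adjusted p = 0.0014). With replicate number as a block, Tagln2 and Tril were not called.

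That a gene was shared did not mean that its effect was equal. The joint test over cell types was called for 211 of the 404 higher and 104 of the 271 lower genes, beside 30.1% of all genes. It treated all libraries as independent, so its p-values do not allow for cell types that may share animals. The largest fold of a gene lay most often in mesangial cells, for 178 of the higher and 149 of the lower genes, against 139 and 46 in podocytes and 87 and 76 in gECs.

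Mice bred to carry a mutation keep a stretch of the chromosome on which it arose, so shared genes were counted by their distance from Lep. Lep lies on chromosome 6 at 29060220 to 29073877 (GRCm38). Within 30 Mb of it, 18 of 304 genes tested were shared (5.92%, 95% Wilson interval 3.78 to 9.16, a counting error only), beside 4.31% of all genes, and 12 of the 18 were higher. The share was 3.96% within 10 Mb and 5.41% within 60 Mb. The first 8 were Ppp1r3a, Tril, Col1a2, Smo, Zyx, Abcg2, Cttnbp2 and RP23-83P5.5. Ppp1r3a, Cttnbp2 and Col1a2 lie 14.3, 10.6 and 24.5 Mb on the side towards the start of the chromosome, and Zyx, RP23-83P5.5, Tril and Abcg2 13.3, 20.2, 24.8 and 29.6 Mb on the other side. Genotype at Lep, linked sequence and diabetes cannot be told apart for these genes in this design. For every shared gene, near Lep or not, loss of leptin, obesity and hyperglycemia all go with genotype and cannot be told apart either.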

How the data were processed

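RNA of sorted glomerular cells was sequenced from stranded SMART-Seq libraries, and the 138 libraries of mesangial cells, podocytes and gECs were used here. Per the study's methods and the submitters' processing notes, reads were checked with FastQC 0.11.5 and aligned to mm10 with Bowtie2 2.3.3.1 within RSEM 1.3.0. The annotation release is not given in the sources used here. RSEM output was deposited per library with 46517 gene entries, in 2 units, RSEM's expected counts (estimated reads per gene, not normalised, replicates not pooled) and TPM (transcript abundance scaled by gene length to a fixed total). Both deposited units were used, expected counts rounded to whole numbers for the tests and TPM for comparing levels between genes and as an alternative on a log2 scale with a pseudocount of 0.5. Symbols came from the files and positions from GENCODE M21 for 46005 entries, and 197 entries that share a symbol were kept apart by identifier.

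Counts of each cell type were fitted in edgeR 4.0.16 (R 4.3.3) with the quasi-likelihood test, TMM scaling, the filterByExpr filter on low counts, 6 groups of genotype by age and sex as a term. The contrast was the mean of the ob/ob minus WT differences at 6, 12 and 18 weeks, two-sided, with Benjamini-Hochberg adjustment over all genes of the cell type and calls at 0.05. The held-out test fitted male and female libraries separately. Age, sex and cell type differences were tested as interaction terms. The joint test over cell types used all 138 libraries, with sex within cell type but no term for replicate number or mouse. CPM are counts scaled by TMM library size. Carryover into a library was the median, over the markers of another cell type, of their CPM in that library as a percentage of their mean in the cell type they mark at the same genotype and age.

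Genes and lists (27 pathways and 13 marker lists) were chosen with earlier results of these data known. Named genes were the first 12 in each direction by the smallest of the 3 absolute folds, the first 6 in each direction whose lowest WT TPM among the cell types was at least 10% of the highest, the first 8 within 30 Mb of Lep, the first 4 shared genes of each pathway list with 2 or more, the first 3 of the list with most opposite calls, the carryover markers, and the first 3 of the age interaction in each cell type. Entries with predicted-gene names were counted but not named unless near Lep, and some genes that the rule names are not reported here. Alternatives were RLE size factors, TPM with limma 3.58.1, DESeq2 1.42.0, other filters, no sex term, replicate number as a block, omission of an age, subtraction of carryover, marker covariates, 1 fit of all 138 libraries and stricter thresholds. Omission of libraries that stood apart was chosen after seeing the data. The steps were tested on simulated counts for 14923 genes, where 37 of 100 genes changed by 1.5-fold and 92 of 100 changed by 2-fold were called in all 3 cell types, with 0 unchanged genes called. The simulation drew each cell type separately, with 1 spread for all genes and without carryover or shared animals. It therefore does not measure how many shared calls those would give.

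Same-numbered libraries of WT and ob/ob mice had a mean correlation of deviations of 0.073, 0.108 and 0.098 in mesangial cells, podocytes and gECs. Other numbers had -0.022, -0.036 and -0.033, and the lowest same-number values were -0.174, -0.143 and -0.373. The means of other numbers largely follow from the same-number means, since deviations were taken from the mean of each group and sex. Something may thus go with the number, but the labels do not say what. The main fit did not pair the genotypes by number, and replicate number as a block was an alternative. No pair of libraries held identical counts. Nothing in the labels says that libraries of a group came from separate mice, so p-values measure the spread between these libraries.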

Additional observations from a re-analysis of the deposited data

Results flagged for a closer look

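Among the first 4 higher and first 4 lower shared genes, 144 groups of 7 or 8 libraries were checked for a library far from the others, a check that chance meets in about 1 in 20 groups, and 9 groups held one. In WT podocytes, Pcdh7 stood at 0.402 CPM in female 3 at 12 weeks (others up to 0.153 CPM) and Igfbp3 at 0.792 CPM in male 1 at 18 weeks (others up to 0.249 CPM). In WT gECs, Abcb1a stood at 0.74 CPM in male 3 at 6 weeks (others up to 0.234 CPM), and Ppp1r3a at 0.509 CPM in female 4 at 6 weeks (others up to 0.106 CPM) and at 0.186 CPM in male 4 at 12 weeks (others up to 0.0761 CPM). In podocytes, Btbd11 stood at 6.72 CPM in ob/ob male 2 at 6 weeks (others from 16.8 CPM), and Rims2 at 2.56 CPM in WT female 1 at 6 weeks (others from 3.63 CPM) and at 0.766 CPM in ob/ob female 2 at 18 weeks (others from 3.03 CPM). Trabd2b stood at 1.58 CPM in WT mesangial male 2 at 18 weeks (others from 2.94 CPM).

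The effect of genotype (ob/ob over WT) differed between 6 and 18 weeks for 9 named genes by the edgeR interaction test. The difference, 18 minus 6 weeks on the log2 scale, was 1.83 for Pcdh7, 1.29 for Col12a1, 0.57 for Plin2 and -1.72 for Ephb1 in mesangial cells, -1.0 for Tgfb1i1, -0.65 for Tagln2 and -1.07 for Tfrc in podocytes, and 1.23 for Tril and -0.51 for Zfp445 in gECs.

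The averaged effect differed between cell types for 3 of these first 8 genes. The largest minus the smallest log2 fold change was 1.41 for Pcdh7 (adjusted p = 0.0347), 2.16 for Igfbp3 (adjusted p = 6.76e-06) and 1.31 for Trabd2b (adjusted p = 0.00126) by the joint edgeR test.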

How the results depend on the processing

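The numbers of shared genes stayed within 1.5 times of 404 higher and 271 lower with RLE size factors, other filters, DESeq2, no sex term, 1 fit of all libraries, subtraction of carryover and omission of libraries that stood apart or of 12 weeks. Like numbers did not always mean the same genes. Of the 404 higher and 271 lower genes, 390 and 270 stayed shared with RLE size factors. In 1 fit of all libraries 313 and 165 did, and without 12 weeks 296 and 134 did. With replicate number as a block, 416 higher and 231 lower genes were shared, 58 higher and 9 lower genes chosen in females were called in all 3 cell types of males, and 5, 2 and 1 shared genes changed between 6 and 18 weeks in mesangial cells, podocytes and gECs, with Tagln2 and Tril no longer called, while the pairing of genotypes by number was not taken as given. With TPM 145 higher and 608 lower were shared, and with marker covariates 37 and 5, where 2619 genes were called in mesangial cells and 227 in podocytes. Without 6 weeks, 225 and 102 were shared and 2486 genes were called in gECs, and without 18 weeks 197 and 115, with 2487 called in gECs; these fits hold fewer libraries. At an adjusted p of 0.01, 234 and 111 were shared and 2631 called in gECs, and at 1.5-fold in each cell type 33 and 7. With the highest marker as the carryover level, 61 higher and 22 lower genes stayed above it.

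Of the named genes, some signs turned, and the causes were not tested. With marker covariates these were those of Igfbp3 (-0.81), Prss23os (-0.22), Acta2 (-0.17), Hspa1a (0.27) and Pgam1 (-0.021) in podocytes and Pdgfb (-0.059) in mesangial cells. Without 18 weeks it was that of Acta2 (-0.014) in podocytes. After subtraction of carryover they were those of Col1a2 (0.93) and Angpt2 (-0.043) in gECs and Dock5 (0.16) in mesangial cells, and with TPM those of Srebf1 (-0.018) in gECs and Ctsd (-0.027) in podocytes. Counts were fewest at 18 weeks, with a median of 17.5 M counts per library against 28.2 M at 6 weeks and 29.1 M at 12 weeks.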
